A study of Rattus norvegicus with 8 samples.

Results

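Neutrophils are white blood cells that kill microbes with proteins stored in granules, and the genes described here encode such granule proteins, a pair of cytosolic calcium-binding proteins that neutrophils hold in large amounts, and a growth factor receptor of the lineage. The set was Mpo, Elane, Prtn3, Ngp, Np4, Camp, Ltf, S100a8, S100a9 and Csf3r, chosen by name. Each gene was represented by its brightest probe set among those that the platform annotation assigns to a single gene symbol. Of the 10 genes, 9 had such a probe set, out of 14506 genes measured in this way, and each of the 9 had only 1. The probe set of Np4, an antimicrobial peptide of rat neutrophils, is shared by 2 gene symbols, so Np4 was not analysed.

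RNA of pancreatic islets from Sprague-Dawley rat fetuses was hybridised to 8 Affymetrix whole-transcript arrays, which read the level of each gene as a log2 intensity. The dams, bought as timed pregnancies, were operated on at embryonic day 18 either to restrict the growth of the fetuses (IUGR, intrauterine growth restriction) or as a sham procedure, and islets were taken at embryonic day 19. Each array holds the islet RNA of 1 whole litter, which gives 4 IUGR litters and 4 sham litters, and the litter is the replicate. The pups of a litter cannot be told apart, and the labels name no sort of cells after islet isolation. The comparison asks how the restriction, 1 day after surgery, is reflected in islet RNA.

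Granule proteins are made in a fixed order as a neutrophil matures. Promyelocytes make the azurophil granule proteins Mpo, Elane and Prtn3, whereas the specific granule proteins Ngp, Camp and Ltf follow in myelocytes and metamyelocytes, and S100a8 and S100a9 persist into the mature cell. In the fetus, neutrophils and red cells both form in the liver, and both circulate in blood.

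The arrays carried the RNA of several tissues. The 15 measured islet endocrine genes averaged 10.67 to 11.17 in the IUGR litters and 10.30 to 11.86 in the sham litters, on the log2 scale. Genes of liver plasma proteins averaged 11.30 to 12.79 in IUGR litters and 8.99 to 11.51 in sham litters, and acinar genes 10.59 to 11.58 against 9.17 to 10.49. All 20 liver genes (median difference 1.84) and all 15 acinar genes (median difference 1.03) had a higher IUGR mean. None passed the adjusted threshold of 0.05 in limma, the linear model fitted across all genes, and 18 liver and 9 acinar genes had unadjusted p-values under 0.05, against 26.1% of all genes. The spread of signals also differed, with an interquartile range over genes of 3.53 to 3.62 in the IUGR arrays, 3.63 in sham litter 1 and 3.06 to 3.23 in the other sham arrays. The part of these features in the neutrophil values was not tested. In pooled tissue, fewer neutrophils and less RNA per neutrophil cannot be told apart.

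Ngp, Camp, S100a8, S100a9 and Csf3r varied most between litters. Ngp, neutrophilic granule protein, read 8.90, 11.89, 10.91 and 10.25 in IUGR litters 1 to 4, against 12.59, 11.41, 12.27 and 12.15 in sham litters 1 to 4. IUGR litter 1 lay below all others and sham litter 1 above them, a 12.9-fold span, and IUGR litter 2 lay within the sham range. The IUGR litters averaged 10.49 ± 1.25 and the sham litters 12.10 ± 0.50 (SD, n = 4 each), a difference of -1.62 ± 0.58 (SE). Limma gave an unadjusted p of 0.023 and an adjusted p of 0.145 over all genes. With the erythroid mean as a covariate the difference was -0.89 (limma adjusted p = 0.304). Only 1.06% of genes had a larger SD over the 8 litters.

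Camp, the cathelicidin antimicrobial peptide, read 7.48, 10.05, 8.77 and 8.46 in IUGR litters 1 to 4, against 9.98, 8.88, 9.64 and 8.89 in sham litters 1 to 4. The highest and the lowest litters were both IUGR litters, and they enclosed the whole sham range. The difference was -0.66 ± 0.52 (SE, limma adjusted p = 0.426). It was -0.25 without IUGR litter 1 and -1.11 without IUGR litter 2.

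Ltf, the iron-binding protein lactoferrin, read 6.32, 6.38, 6.41 and 6.38 in the IUGR litters, against 6.49, 6.49, 6.65 and 6.40 in the sham litters. Every value lay below the 25th percentile of genes on its own array, so this probe set gives little room to see a change. The difference was -0.13 ± 0.08 (SE, limma adjusted p = 0.307).

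S100a8 and S100a9 encode the subunits of calprotectin, which binds calcium and zinc. S100a8 read 6.64, 8.39, 6.93 and 6.97 in the IUGR litters, against 8.60, 7.16, 8.40 and 7.75 in the sham litters. S100a9 read 9.45, 11.33, 10.35 and 9.91 in the IUGR litters, against 11.38, 9.99, 11.08 and 11.31 in the sham litters. Both genes had the same order of extremes: sham litter 2 was the lowest sham litter and lay among the IUGR litters, while IUGR litter 2 reached the level of the higher sham litters. The differences were -0.74 ± 0.44 for S100a8 and -0.68 ± 0.44 for S100a9 (SE), with limma adjusted p-values of 0.306 and 0.348. Without IUGR litter 2 they were -1.13 and -1.03, and without IUGR litter 1 that of S100a9 was -0.41.

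Csf3r, the receptor for granulocyte colony-stimulating factor, read 7.38, 8.25, 8.08 and 7.32 in the IUGR litters, against 9.02, 8.12, 8.11 and 8.73 in the sham litters. IUGR litter 2 overlapped the lower sham litters, IUGR litter 3 lay just below them, and IUGR litters 1 and 4 lay well below every sham litter. The difference of -0.73 ± 0.29 (SE) had an unadjusted p of 0.034 and an adjusted p of 0.163 in limma.

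Of the azurophil granule genes, Mpo and Elane had a higher and Prtn3 a lower IUGR mean. Mpo, myeloperoxidase, read 9.78, 10.38, 10.39 and 10.86 in IUGR litters 1 to 4, against 10.03, 9.91, 9.99 and 10.02 in sham litters 1 to 4. The sham litters were close together (SD 0.05) and the IUGR litters were not (SD 0.44), with IUGR litter 1 below and the other 3 above all sham litters. The difference was 0.36 ± 0.20 (SE, limma adjusted p = 0.275). It was 0.19 without IUGR litter 4, 0.55 without IUGR litter 1, and 0.13 to 0.17 after quantile normalization, median centring or cyclic loess.

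Elane, neutrophil elastase, read 8.62, 9.07, 9.15 and 9.71 in the IUGR litters, against 8.70, 8.94, 8.63 and 9.21 in the sham litters. IUGR litter 4 was again the highest and IUGR litter 1 the lowest of all. The difference was 0.27 ± 0.23 (SE, limma adjusted p = 0.464), and 0.08 without IUGR litter 4. It was 0.01 to 0.07 after quantile normalization, median centring or cyclic loess.

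Prtn3, proteinase 3, read 7.32, 7.32, 7.38 and 7.48 in the IUGR litters, against 7.41, 7.67, 7.42 and 7.68 in the sham litters. It varied over less than 0.4 on the log2 scale and sham litters 2 and 4 lay above IUGR litter 4, which was the highest litter for Mpo and Elane. The difference was -0.17 ± 0.10 (SE, limma adjusted p = 0.282).

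**Figure D1:**
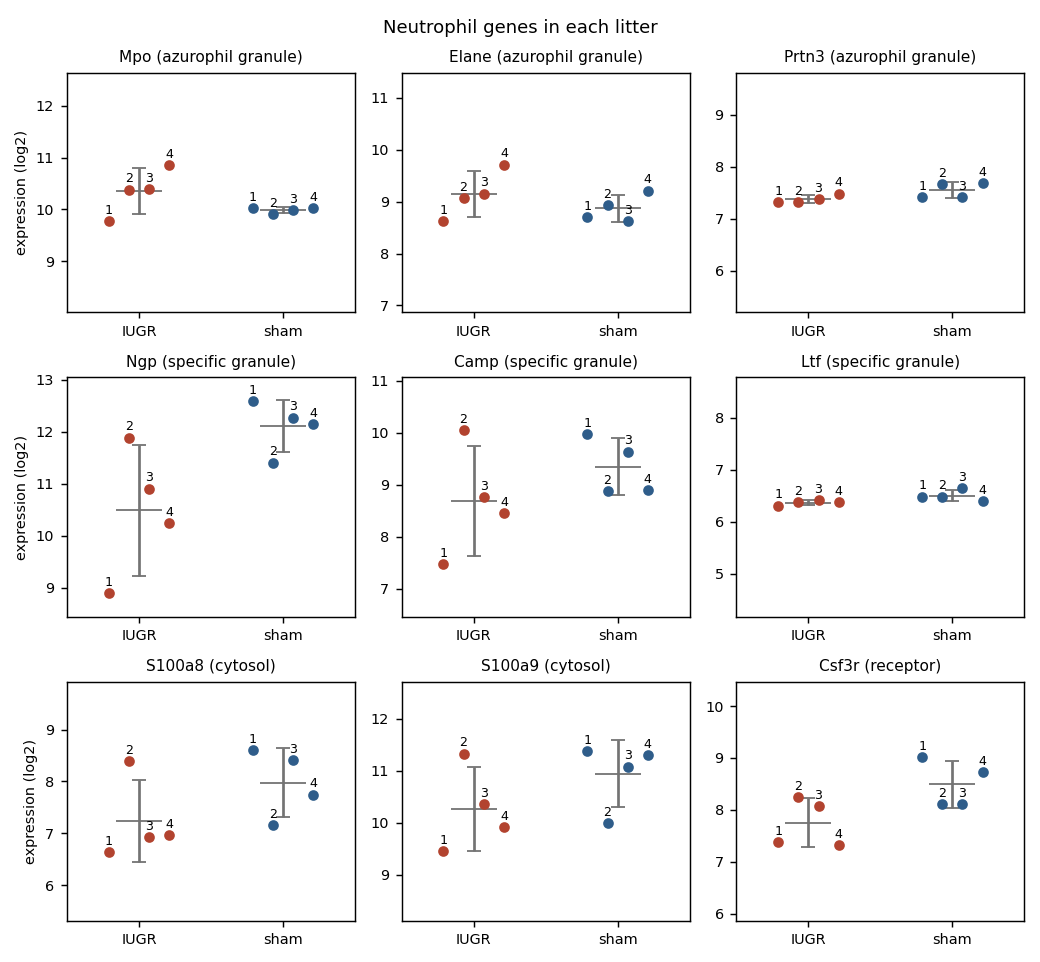
Expression (log2) of each of the 9 genes in the IUGR litters (left in each panel) and the sham litters (right), each point labelled with its litter number and every panel spanning the same range of log2 units. Bars show the group mean and SD (n = 4). Ngp spans the widest range, from 8.90 in IUGR litter 1 to 12.59 in sham litter 1, while Ltf and Prtn3 hardly vary.

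Across the 9 genes, 7 had a lower and 2 a higher mean in the IUGR litters, where 44.9% of all 14506 genes were lower. The median difference of the 9 was -0.66, beside 0.04 for all genes. None of the 9 passed the adjusted threshold of 0.05 in limma, which 0.248% of all genes (36) passed. Unadjusted p-values under 0.05 were found for 2, Ngp and Csf3r, against 26.1% of all genes, and so at about the background share. None had groups without overlap, against 15.5% of all genes. Their spread between litters was large: 5 of the 9 were among the 10% of genes with the largest SD over the 8 litters, where the median gene had an SD of 0.245, and 4 of the 9 were in the top 10% by SD within groups. IUGR litter 1 had the lowest value of all 8 litters for 7 of the 9.

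**Figure D2:**
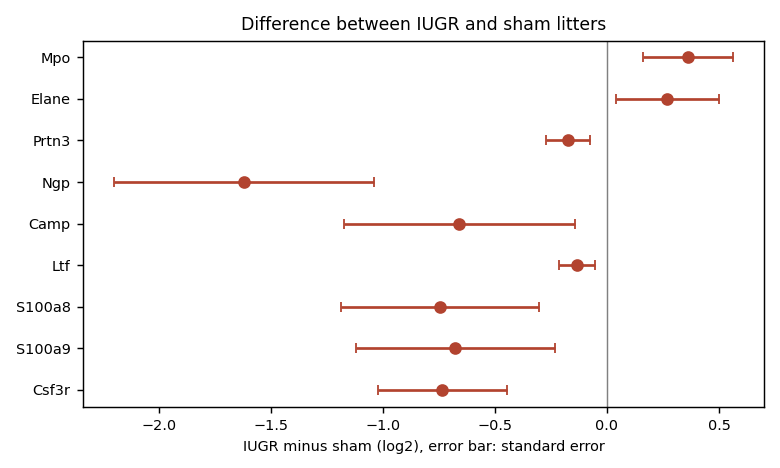
Difference between the IUGR and the sham mean (log2, IUGR minus sham) of each gene, with its standard error from limma. Mpo and Elane lie above 0 and the other 7 below it, with Ngp at -1.62, and none passed the adjusted threshold.

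Some of the genes went up and down together from litter to litter. Over the 8 litters, the 10 pairs among Ngp, Camp, S100a8, S100a9 and Csf3r had Pearson correlations of 0.72 to 0.92. After the mean of each group was taken off, the same pairs had 0.61 to 0.95, so the shared pattern lay within the groups as well. These 5 genes were put together after their values were seen. Mpo and Elane correlated with each other at 0.86, and with the 5 others at -0.33 to 0.09. Centred within groups, Mpo and Elane had r = 0.84 with each other and -0.17 to 0.51 with the 5, the highest being Mpo with Ngp.

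Exact two-sided permutation tests over the 40320 pairings of litters were run for all 36 pairs, and p-values were adjusted over all genes set against the first gene of each pair. Ngp and Camp had r = 0.90 (permutation p = 0.0017) and rho = 0.86 (permutation p = 0.011). Their adjusted p was 0.394, and r was 0.86 without the 2 litters farthest from the median of Ngp. S100a8 and S100a9 had r = 0.91 (permutation p = 0.0069) and rho = 0.86 (permutation p = 0.011), and r stayed at 0.86 without the 2 litters farthest from the median of S100a8. Mpo and Elane had r = 0.86 (permutation p = 0.0089) and rho = 0.76 (permutation p = 0.037), but r was 0.51 without the 2 litters farthest from the median of Mpo. Their adjusted p was 0.720, that of S100a8 and S100a9 was 1.0, and no pair passed the adjusted threshold. Mpo and Ngp had r = -0.09 (permutation p = 0.827).

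Some of the genes lie side by side. By the RefSeq annotation of the rat assembly GRCr8, S100a8 and S100a9 are direct neighbours on chromosome 2, and Elane and Prtn3 are direct neighbours on chromosome 7. The first pair correlated at 0.91 (0.89 centred within groups) and the second at 0.29 (0.76 centred within groups). Ngp and Camp lie on chromosome 8 with 11 genes between them.

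**Figure D3:**
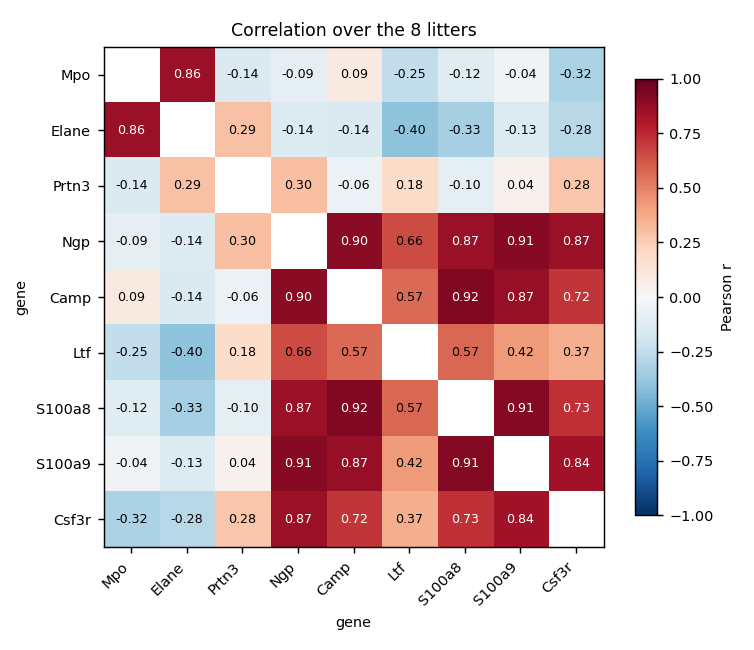
Pearson correlation over the 8 litters for each pair of the 9 genes, in order of role. Ngp, Camp, S100a8, S100a9 and Csf3r form a block of 0.72 to 0.92, and Mpo and Elane pair with each other at 0.86 and with that block at -0.33 to 0.09.

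The promoters of 4 genes are printed to set genes of the co-varying set (Ngp, S100a9 and Camp) beside Mpo, whose r with Ngp was -0.09 over the litters and 0.51 within groups. RefSeq promoter windows of GRCr8, 250 bases before to 50 bases after the annotated start, were at hand for 7 of the 9 genes. Elane and S100a8 have no entry in that table. Granulocyte genes are known targets of C/EBP factors and of PU.1 (gene Spi1), so both strands were searched for a C/EBP-type motif, TTNNGNAA, and a PU.1-type motif, GAGGAA. The windows are Ngp at chr8:119272355-119272654 on the plus strand, S100a9 at chr2:178490573-178490872 on the minus strand, Mpo at chr10:73092152-73092451 on the plus strand and Camp at chr8:118721949-118722248 on the minus strand. Each is given 5′ to 3′ in the direction of transcription, with motif matches in capitals.
Ngp: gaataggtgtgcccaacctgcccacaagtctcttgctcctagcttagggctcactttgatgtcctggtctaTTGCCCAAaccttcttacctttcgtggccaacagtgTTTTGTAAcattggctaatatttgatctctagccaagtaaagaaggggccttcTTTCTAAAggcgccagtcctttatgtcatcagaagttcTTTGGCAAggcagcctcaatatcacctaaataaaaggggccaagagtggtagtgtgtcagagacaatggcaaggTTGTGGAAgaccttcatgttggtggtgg
S100a9: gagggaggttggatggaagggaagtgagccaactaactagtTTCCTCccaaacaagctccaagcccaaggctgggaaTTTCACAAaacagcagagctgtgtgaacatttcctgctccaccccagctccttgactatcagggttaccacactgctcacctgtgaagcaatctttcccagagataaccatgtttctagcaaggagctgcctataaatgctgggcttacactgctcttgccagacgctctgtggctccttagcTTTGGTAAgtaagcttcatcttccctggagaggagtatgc
Mpo: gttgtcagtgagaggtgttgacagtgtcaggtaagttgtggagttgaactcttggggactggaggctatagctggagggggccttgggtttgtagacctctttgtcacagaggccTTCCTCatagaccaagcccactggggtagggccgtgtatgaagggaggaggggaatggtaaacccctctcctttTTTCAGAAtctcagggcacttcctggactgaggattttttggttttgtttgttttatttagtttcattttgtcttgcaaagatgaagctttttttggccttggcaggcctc
Camp: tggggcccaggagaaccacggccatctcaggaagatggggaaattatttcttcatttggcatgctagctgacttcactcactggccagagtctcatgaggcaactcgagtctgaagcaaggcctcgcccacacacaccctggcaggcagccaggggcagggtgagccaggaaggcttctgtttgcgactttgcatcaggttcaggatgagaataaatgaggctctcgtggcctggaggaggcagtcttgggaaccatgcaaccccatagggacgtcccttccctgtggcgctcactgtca
The C/EBP-type motif was in the windows of 4 of the 7 genes (Csf3r, Mpo, Ngp and S100a9), against 41.3% of 33469 rat promoter windows of the same length. The PU.1-type motif was also in 4 of the 7 (Csf3r, Mpo, Prtn3 and S100a9), against 27.6%. No matches overlapped each other. The Ngp window held 5 C/EBP-type matches, a number reached by 0.212% of all windows. S100a9 held 2 of them and 1 PU.1-type match, Mpo held 1 of each, and Camp held neither string. These are matches of letters and not measured binding. Of the co-varying genes with a window, Ngp, S100a9 and Csf3r held the C/EBP-type motif and Camp did not. Camp and Ngp, which correlated at 0.90, held 0 and 5 C/EBP-type matches. Whether the motifs bear on the shared pattern was not tested.

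Erythroid genes were set beside the neutrophil genes because both lineages are cells of the blood. The erythroid list had 31 measured genes of 43, among them globins, Ahsp (a chaperone of alpha globin) and Alas2 (the first enzyme of haem synthesis in red cells). Its mean was 9.92, 10.87, 10.97 and 10.38 in IUGR litters 1 to 4, against 11.32, 11.25, 11.18 and 10.47 in sham litters 1 to 4. IUGR litters 1 and 4 lay below all sham litters, and sham litter 4 lay below IUGR litters 2 and 3. Of the 31 genes, 29 had a lower IUGR mean, against 44.9% of all genes, with a median difference of -0.61. Limma found none past the adjusted threshold and 8 at unadjusted p under 0.05, all lower, which is about the 26.1% share of all genes. Hba-a3 differed by -1.03 (adjusted p = 0.109), Hbb-b1 by -0.52 (adjusted p = 0.120), Ahsp by -0.65 (adjusted p = 0.138) and Alas2 by -0.95 (adjusted p = 0.165), all in limma.

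On the deposited values, Ngp, Camp and Ltf followed the erythroid mean over the 8 litters most closely. Ngp had r = 0.78 (exact permutation p = 0.019) and rho = 0.71 (permutation p = 0.058). Camp had r = 0.79 (exact permutation p = 0.022) and rho = 0.60 (permutation p = 0.132). Ltf had r = 0.75 (exact permutation p = 0.026) and rho = 0.86 (permutation p = 0.011), although its values spanned only 6.32 to 6.65.

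None of the 9 genes passed after adjustment over the 14475 genes outside the erythroid list, with adjusted p-values of 0.353 for Ngp, 0.363 for Camp and 0.383 for Ltf. The share of all genes that passed was 0.0%. Unadjusted p-values under 0.05 were found for these 3 of the 9, against 11.1% of all genes, and r over 0.5 for 6 of the 9, against 13.3%. Csf3r had r = 0.62 (permutation p = 0.108) and rho = 0.60 (permutation p = 0.132). S100a8 had r = 0.60 (permutation p = 0.110) with rho = 0.67 (permutation p = 0.083), and S100a9 r = 0.52 (permutation p = 0.177) with rho = 0.57 (permutation p = 0.151).

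The azurophil genes gave correlations close to 0 or negative. Mpo had r = -0.09 (permutation p = 0.824) and rho = -0.05 (permutation p = 0.935). For Elane, r was -0.26 (permutation p = 0.531) and rho -0.24 (permutation p = 0.582). For Prtn3, r was 0.15 (permutation p = 0.734) and rho 0.14 (permutation p = 0.752).

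The positive correlations with the erythroid mean rested largely on IUGR litter 1. Each of the 9 genes had its lowest r when that litter alone was left out (0.50 for Ngp, 0.56 for Camp and 0.65 for Ltf). For Mpo and Elane, whose r was negative with all litters, the lowest r was farther from 0, at -0.65 and -0.88. Without IUGR litter 4 alone, r was 0.75 for Ngp, 0.77 for Camp and 0.74 for Ltf. Without both, the litters farthest from the median erythroid mean, r was 0.07 for Ngp, 0.33 for Camp, 0.16 for S100a8, -0.32 for S100a9 and -0.11 for Csf3r, and 0.59 for Ltf. For the azurophil genes it was then -0.29 (Mpo), -0.80 (Elane) and -0.27 (Prtn3). With values centred within each group, r was 0.65 for Ngp, 0.74 for Camp and 0.60 for Ltf, and no gene of the table passed (exact permutation within groups, 576 pairings, adjusted p-values of 0.437, 0.388 and 0.445). Sham litter 4 acted on the value of Ngp in the other direction: Ngp read 12.15 there beside a low erythroid mean, and r for Ngp was 0.92 without that litter. Camp and Ltf hardly moved when it was left out, with r of 0.80 and 0.75. In sham litter 4 the globin Hbg1 read 8.76, while it spanned 10.46 to 11.47 over the IUGR litters and 12.41 to 12.94 over the remaining sham litters.

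**Figure D4:**
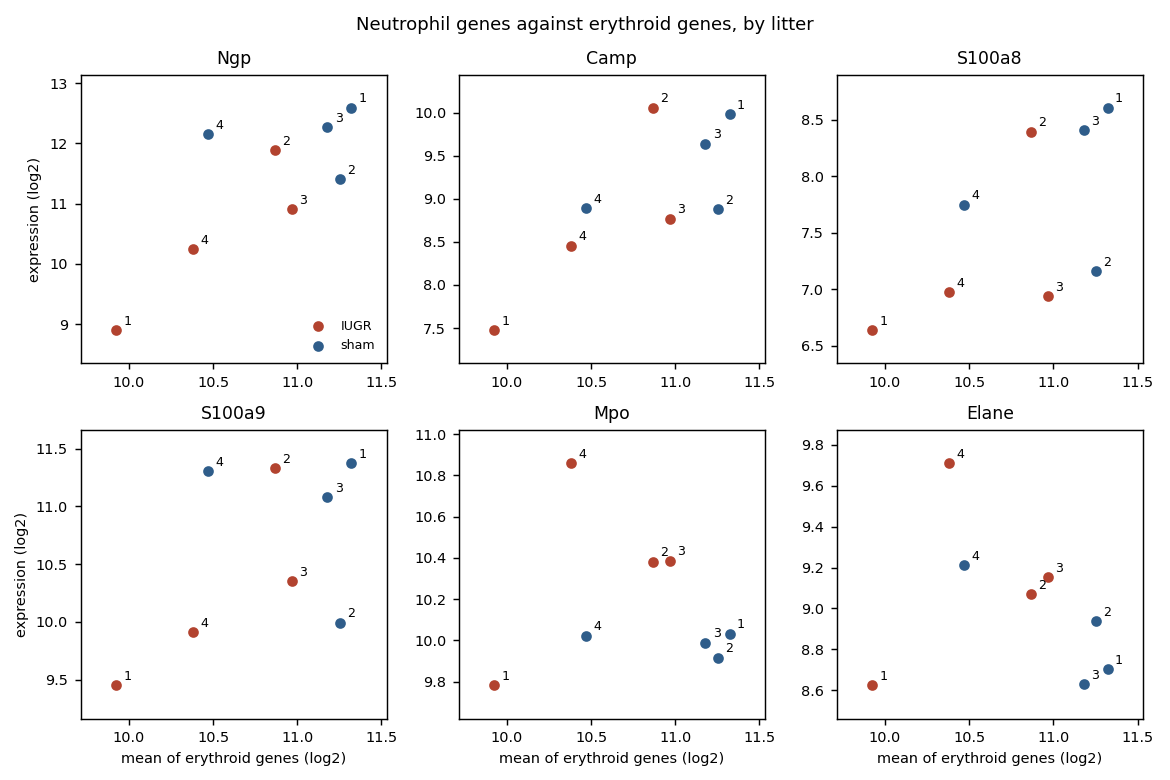
Expression (log2) of 6 of the genes against the mean of the 31 erythroid genes (log2), 1 point per litter, labelled with its number, IUGR in red and sham in blue. Ngp and Camp are lowest in IUGR litters 1 and 4, where the erythroid mean is lowest too, while Mpo and Elane are highest in IUGR litter 4.

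Means of other blood cell lists also went with Ngp. The mean of 22 macrophage and monocyte genes correlated with Ngp at 0.86, that of 16 lymphocyte genes at 0.82, that of 15 mast cell and basophil genes at 0.74 and that of 7 eosinophil genes at 0.68, with no test. Liver and acinar means correlated with it at -0.53 and -0.65, megakaryocyte genes at -0.09 and islet endocrine genes at -0.20. Csf3r had 0.93 with the lymphocyte mean, 0.62 with the erythroid mean and -0.85 with the acinar mean. With the megakaryocyte, liver and acinar means, in that order, Mpo had r of 0.59, 0.54 and 0.54. Elane had 0.43, 0.18 and 0.27, and Prtn3 had -0.03, -0.78 and -0.58. IUGR litter 4 was the highest litter for Mpo, for Elane and for the megakaryocyte, liver and acinar means. These correlations were not computed without that litter. The macrophage mean was 8.93 to 9.87 in the IUGR litters and 9.63 to 10.44 in the sham litters, and 20 of its 22 genes had a lower IUGR mean. The median differences were -0.52 for macrophage, -0.65 for mast cell, -0.32 for lymphocyte, -0.15 for eosinophil, 0.06 for megakaryocyte and 0.10 for islet endocrine genes, with no gene of these lists past the adjusted threshold in limma. Unadjusted p-values under 0.05 were found for 5 of 22 macrophage, 5 of 15 mast cell, 4 of 16 lymphocyte, 1 of 7 eosinophil, 0 of 6 megakaryocyte and 1 of 15 islet endocrine genes, against 26.1% of all genes. These genes were lower in the IUGR litters except the islet gene Isl1 and 2 mast cell genes, among them Hdc at 2.23. All of these means come from the same arrays, so they share any feature of an array.

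Other genes of the neutrophil lineage were read from 3 lists, which held 67 measured genes of 81. In limma none passed the adjusted threshold, and 17 had unadjusted p-values under 0.05, of which 10 were lower and 7 higher in the IUGR litters, about the 26.1% share of all genes. Of all 67, 49 had a lower IUGR mean, against 44.9% of all genes. With Ngp, 35 of the 67 had r over 0.5, against 11.7% of all genes, and with Mpo 9 of the 67, against 18%.

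Among other granule proteins and enzymes, 18 of 27 had a lower and 9 a higher IUGR mean, with a median difference of -0.12. Lyz2, a lysozyme of granulocytes and macrophages, read 11.15, 12.42, 12.10 and 11.22 in the IUGR litters, against 12.94, 12.54, 12.50 and 12.60 in the sham litters. The groups did not overlap, and the difference was -0.92 ± 0.29 (SE, limma adjusted p = 0.132). Fcnb, a ficolin of granulocytes, differed by -1.05 (limma adjusted p = 0.141) and Bpifa2 by -0.43 (limma adjusted p = 0.137). Every value of Bpifa2, from 5.86 to 6.75, lay below the 25th percentile of genes on its own array. Its difference was -0.23 after quantile normalization (limma adjusted p = 0.254). Whether neutrophils are its source in these samples was not tested. Serpinb1a, an inhibitor of neutrophil proteases that other cells also make, had the opposite sign without overlap, at 0.91 (limma adjusted p = 0.107).

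The metalloproteinases Mmp9 and Mmp8 and the defensin Defa5 are named here after their values were seen. Mmp9, gelatinase B, read 8.34, 9.94, 9.42 and 8.40 in the IUGR litters, against 10.57, 9.69, 9.87 and 10.23 in the sham litters. Its r was 0.94 with Ngp and -0.31 with Mpo. Mmp8, neutrophil collagenase, read 8.37, 10.40, 8.95 and 8.58 in the IUGR litters, against 10.96, 8.29, 9.94 and 10.41 in the sham litters. Its r was 0.80 with Ngp and -0.09 with Mpo, and it shared with S100a9 the low value of sham litter 2. The alpha-defensin Defa5 had r = 0.81 with Mpo and 0.31 with Ngp. For the other measured alpha-defensins of the list, r with Mpo was 0.55 (Defa7), 0.43 (Defa11), 0.32 (Defa10), -0.48 (Defa9) and -0.68 (Defa8). Whether neutrophils are the source of Defa5 in these samples was not tested.

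In the list of receptors, adhesion molecules and oxidase subunits, 23 of 27 genes had a lower and 4 a higher IUGR mean, with a median difference of -0.31. Fpr1, the receptor for formylated bacterial peptides, read 6.68, 7.08, 6.80 and 6.78 in the IUGR litters, against 7.91, 7.09, 7.30 and 7.86 in the sham litters. The groups touched without overlapping, and the difference was -0.70 ± 0.20 (SE, limma adjusted p = 0.121). Trem1, which amplifies the response of neutrophils to microbes, differed by -0.65 (limma adjusted p = 0.139) and Cxcr1, a chemokine receptor, by -0.55 (limma adjusted p = 0.132). Cxcr1 read 6.40 to 6.57 in the IUGR litters and sham litter 1, below the 25th percentile of genes on those arrays. In sham litters 2 to 4, whose arrays had the narrower spread of signals, it read 7.08 to 7.26. Its difference was -0.47 after quantile normalization or cyclic loess, and the part of the spread was not tested. Cd24, a surface protein of many cell types, was at 0.50 in the other direction (limma adjusted p = 0.0895). After quantile normalization, median centring or cyclic loess, Cd24 was at 0.27 to 0.45. Under the same alternatives Fpr1 was at -0.94 to -0.68 and Trem1 at -0.885 to -0.79.

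Of the factors that steer granulocyte formation, 8 of 13 had a lower and 5 a higher IUGR mean, with a median difference of -0.12. Spi1, which encodes the myeloid factor PU.1, read 8.23, 9.28, 8.71 and 8.53 in the IUGR litters, against 10.16, 9.39, 9.32 and 9.17 in the sham litters. Its difference was -0.82 ± 0.27 (SE, limma adjusted p = 0.139), and its r was 0.89 with Ngp and -0.25 with Mpo. Gfi1, a repressor needed for neutrophil maturation that other tissues also express, read 8.99, 8.86, 8.77 and 9.59 in the IUGR litters, against 8.40, 8.05, 8.13 and 7.73 in the sham litters. The groups did not overlap, the difference was 0.97 ± 0.21 (SE, limma adjusted p = 0.0805), and r was 0.68 with Mpo and -0.65 with Ngp. Cebpa, at 0.71 (limma adjusted p = 0.142), and Klf5, at 1.06 (limma adjusted p = 0.143), had the same sign, and both are also active in cells outside the blood. After quantile normalization, median centring or cyclic loess, Cebpa was at 0.48 to 0.55 and Klf5 at 0.83 to 0.86. Under the same alternatives Gfi1 was at 0.74 to 0.80 and Spi1 at -1.05 to -1.03.

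Genes like the mean of the 9 neutrophil genes, each scaled to its own SD, were sought by their correlation with it over the 8 litters. The search covered 5421 genes with an SD of at least 0.3. That mean averages over genes that did not all vary together, such as Ngp and Mpo (r = -0.09). The 8 closest were Lyc2 (0.91), Itga4 (0.89), Lypd8l1 (0.88), Alox5 (0.87), Stfa3 (0.87), Slc25a37 (0.87), Itgal (0.87) and Cfp (0.86). Their r with the erythroid mean ran from 0.66 (Stfa3) to 0.91 (Slc25a37), and that of Lypd8l1 was 0.90. Slc25a37 is itself part of that mean, and its r with the rest of the list was 0.90. Alox5 makes leukotrienes in granulocytes, Itga4 and Itgal are leukocyte integrin chains, Cfp is the complement protein properdin, and Slc25a37, the mitochondrial iron importer mitoferrin, belongs to the erythroid list. Stfa3, a stefin, read 7.87, 10.06, 8.73 and 8.28 in the IUGR litters, against 10.39, 8.75, 9.99 and 9.61 in the sham litters, with the low sham litter 2 and the high IUGR litter 2 of S100a8. None of these 8 genes passed the adjusted threshold in limma, with adjusted p-values of 0.139 to 0.336.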

How the data were processed

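Total RNA of pooled fetal islets, 1 array per litter, was isolated with RNAzol B and labelled with the GeneChip WT terminal labeling kit, per the labels. The deposited values are log2 expression values per probe set, made by the authors with RMA, per the submitters' processing notes. No source used here gives the software, its version or any probe filter. Of 29214 probe sets, 15310 had 1 gene symbol in the platform annotation, 323 several and 13581 none, and 15279 of the first matched a RefSeq gene (GRCr8). For 527 genes with several probe sets the brightest was used. Arrays have no read depth, and their number limits the precision.

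The values were fitted without further normalization in limma 3.58.1 (R 4.3.3; lmFit and eBayes, 2 groups, 8.21 total degrees of freedom), with two-sided p-values adjusted by Benjamini and Hochberg over 14506 genes at a threshold of 0.05. Correlations were computed in Python 3.11.15 with exact two-sided permutation. Both steps were tested on simulated data. The genes and lists were chosen with earlier results of these data known. The rule for named genes took the 10 genes described, up to 4 genes per list by smallest unadjusted p, and the 8 genes most like the set. The lists were those of neutrophil, erythroid, macrophage, mast cell, eosinophil, lymphocyte, megakaryocyte, liver, islet endocrine and acinar genes. Alternatives covered normalization, a filter on dim genes, the variance prior, weights per array, a block for the replicate number, probe set choice, the erythroid mean as a covariate, the erythroid list without globins, centring within groups, and each litter left out. Replicate numbers name the litters and do not pair them. Nothing in the sources gives a batch or scan date.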

Additional observations from a re-analysis of the deposited data

Results flagged for a closer look

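Of 42 groups of 4 litters examined, 9 genes and 12 list means in each of 2 conditions, 3 held a litter whose gap to the nearest other exceeded the critical value of Dixon's test, and chance alone gives about 1 in 20. None was a neutrophil gene. The erythroid mean of sham litter 4 was 10.47, against 11.18 to 11.32 in the other sham litters. The islet endocrine mean of that litter was 11.86, against 10.30 to 10.43 in the other sham litters. The lymphocyte mean of sham litter 1, the litter with the highest Ngp, was 8.44, against 7.92 to 7.93 in the others. For the neutrophil genes these litters have no such gap: sham litter 4 read 12.15 for Ngp and sham litter 1 read 12.59, within a sham range of 11.41 to 12.59.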

How the results depend on the processing

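The count of all genes past the adjusted threshold, 36, was unstable: 0 after quantile normalization, 1 after median centring, 0 after cyclic loess, 59 without the 30% dimmest genes, 6358 with array weights, 3 with all probe sets tested and 0 with the erythroid mean as a covariate. With 1 litter left out it ranged from 0 to 2738, the highest without sham litter 1, and it was 157 without sham litter 4. With the replicate number as a block it was 0, with 2715 at unadjusted p under 0.05 and none of the 9 neutrophil genes past. Litters of the same number did not deviate together (r -0.43, 0.10, -0.12 and -0.13), so the numbers give no pairing.

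Of the 9 neutrophil genes, 0 passed under every alternative except array weights, where 2 did, beside 6358 of all 14506 genes. These 2 were Ngp at -1.43 (limma adjusted p = 0.0486, against 0.0486 to 0.304 over its alternatives) and Ltf at -0.24 (limma adjusted p = 0.0104, against 0.0104 to 0.926). The weights were uneven, from 0.20 for sham litter 4 and 0.26 for sham litter 1 to 7.82 for sham litter 3. Of 161 differences, 157 kept sign and side of the threshold. Camp turned to 0.0776 with the erythroid mean as a covariate and Ltf to 0.0471 after quantile normalization, and the cause was not tested. Left-out litters moved Ngp between -2.09 and -1.09. With the erythroid mean as a covariate Ngp was at -0.89, S100a8 at -0.36 and S100a9 at -0.37, and with array weights Csf3r was at -0.24. Of 126 correlations with the erythroid mean, 8 changed sign. Mpo turned to 0.0019 after median centring, 0.32 without IUGR litter 4, 0.0251 without sham litter 2 and 0.33 when centred within groups. Elane turned to 0.0038 without IUGR litter 4, and Prtn3 to -0.21 without IUGR litter 1, -0.10 without sham litter 2 and -0.34 when centred within groups. With 1 litter left out, r ran from -0.65 to 0.32 for Mpo, from -0.88 to 0.0038 for Elane and from -0.21 to 0.41 for Prtn3. Median centring moved the median of all genes from 0.04 to -0.19 and the list medians to -0.35 (other granule proteins), -0.54 (receptors) and -0.35 (granulopoiesis factors).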
